A study of Homo sapiens with 6 samples.

Results

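The genes described here are 43 members of the PI3K, AKT, mTOR and nutrient-sensing pathway, taken by gene name from a table of 62703 genes, and 42 of them had enough counts to be tested. They were followed in HGC-27, a human cell line established from a gastric cancer and grown with 10% fetal bovine serum. The study compared cells carrying a control short hairpin RNA (shControl, labelled wild type) with a stable strain carrying a hairpin against GXYLT2 (shGXYLT2, labelled a GXYLT2 knockdown), with 3 libraries of messenger RNA in each group. All 6 libraries share the cell line, the serum and the expression of some hairpin, and the labels name a single knockdown strain, with the hairpin's promoter and sequence not given. The labels do not say that replicates are separate cultures, so every p-value below measures only the spread between these libraries, which may be technical.

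As background, PI3K enzymes pair a catalytic with a regulatory subunit and, once recruited by receptors or by IRS adaptors, make the membrane lipid PIP3. PIP3 brings PDK1 and AKT to the membrane, where AKT is switched on, and phosphatases reverse both the lipid and the protein step. AKT inhibits the TSC complex and so lets RHEB stimulate the mTOR kinase complex mTORC1 on the lysosome. Amino acids reach the same complex through the Rag GTPases, which the Ragulator anchors to the lysosome and which GATOR1, the sestrins and the folliculin complex control. PI3K signalling is among the pathways most often altered in gastric cancer.

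Library totals were 17291103 to 24898399 estimated counts. GXYLT2 itself fell by 73.5% in mean CPM (counts scaled to library size with TMM factors), from 20.7, 22.8 and 20.2 to 5.27, 6.27 and 5.34, with an exact two-sided permutation p of 0.1, the smallest that 3 against 3 libraries allow. The paralog GXYLT1 fell 2.07-fold. Of 9 gastric and epithelial markers only CDH1 and KRT8 reached 1 CPM in any library (the 9 summed to 4.28 to 5.32 CPM in shControl and 3.79 to 4.74 in shGXYLT2), and TFF1, TFF2, MUC5AC and GKN1 had 0 counts, while the mesenchymal markers averaged 2658 and 2530 CPM for VIM, 38.5 and 78.8 CPM for FN1, and 0.0338 and 0.166 CPM for CDH2 in shControl and shGXYLT2. Leukocyte markers summed to 1.599 to 2.14 CPM in shControl and 1.08 to 1.77 in shGXYLT2, with CD3E at 0, and endothelial markers to at most 0.241 CPM, with PECAM1, CDH5 and KDR at 0. These marker CPM were scaled to library totals without TMM factors. In bulk RNA of this kind fewer cells of a type and less RNA per cell cannot be told apart.

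Short stretches of sequence shared by some members are given first. The members and the word were chosen with earlier results of these data known, so the shares below are a description. The word GTCACGTG, or its reverse complement CACGTGAC, contains the CACGTG core bound by the lysosomal transcription factors TFEB and TFE3, which mTORC1 keeps in the cytoplasm in fed cells. It was searched on both strands in the RefSeq promoters (GRCh38.p14) from 250 bases before to 50 bases after each start. A promoter was listed for 39 members, and 7 of these (17.9%) held the word, against 2.93% of 27305 genes. The sets are unlike, because the 27305 include genes not tested here. A gene with more starts also has more windows in which to hold the word. The 39 members had 67 windows and the 27305 genes 35116. A match is a description of the letters and not a measured site. The 7 windows are printed 5′ to 3′ on the strand of the gene, with the word in capitals.
FNIP1, chr5:131797174-131797203, minus strand: cccgcccctgcCACGTGACgggacccgcca
INPP4B, chr4:142405482-142405511, minus strand: cagctccacagCACGTGACttcctatttct
IRS1, chr2:226799771-226799798, minus strand, within the first transcribed bases: gcggaggctccGTCACGTGtttttctcc
LAMTOR4, chr7:100148893-100148922, plus strand: gcggctgcaagCACGTGACcggggcctgaa
RRAGB, chrX:55717711-55717740, plus strand: tggtagcggcaGTCACGTGacagactccgg
RRAGC, chr1:38859866-38859895, minus strand: ggtgattccggCACGTGACggggcaccacc
TSC2, chr16:2047858-2047887, plus strand: catgcggccccGTCACGTGatgcaaggatc
By the annotated gene bounds, the windows of INPP4B (gene at chr4:142023160-142847432) and TSC2 (gene at chr16:2047465-2089487) lie inside the gene. The IRS1 window is within the first transcribed bases by the RefSeq start only. By the gene bounds (chr2:226731317-226799759, minus strand) it lies before the start. Which start the cells used was not measured. The members with the word did not share a direction. INPP4B fell, and the other holders did not pass the test, with log2 fold changes of -0.40 for IRS1, -0.16 for FNIP1, -0.07 for RRAGB, -0.06 for RRAGC, 0.13 for TSC2 and 0.24 for LAMTOR4.

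In shGXYLT2 cells 5 of the 42 tested members rose (PIK3R3, SGK1, PHLPP1, DEPTOR and SESN3) and 3 fell (INPP4B, PHLPP2 and FNIP2) by edgeR's quasi-likelihood test with Benjamini-Hochberg adjustment over all 15693 tested genes, at an adjusted p below 0.05. The other 34 did not pass. The 8 called members are 19.05% of those tested, beside 12.2% of all tested genes; the 5 rises are 11.9% beside 5.31%, and the 3 falls are 7.14% beside 6.84%, which is close to the background. The median log2 fold change was -0.007 over the members and -0.006 over all tested genes, and the median absolute value was 0.154 and 0.137. Groups did not overlap in 20 members (11 higher and 9 lower in shGXYLT2), or 47.6% beside 30.4% of all tested genes. The called members changed by 1.22-fold to 1.49-fold.

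**Figure D1:**
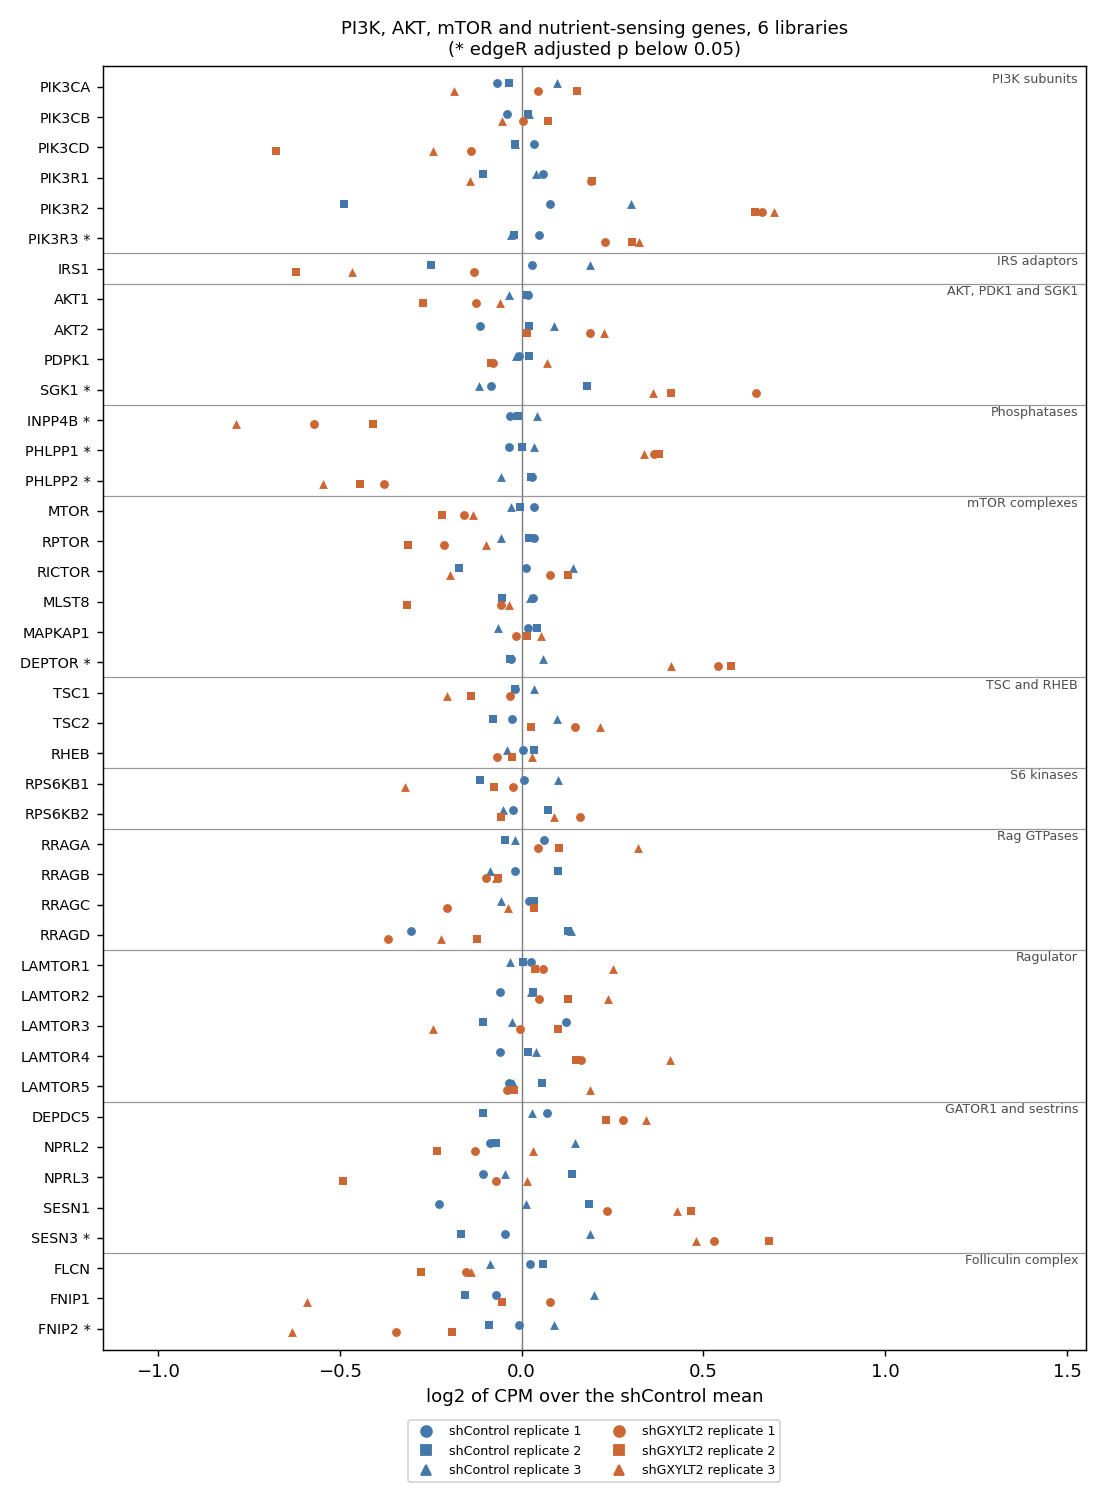
The log2 ratio of each library's CPM to the shControl mean (horizontal axis) for the 42 tested members (rows, by role), with blue points for shControl, orange for shGXYLT2, and circles, squares and triangles for replicates 1, 2 and 3. Starred members passed the test. Of these, PIK3R3, SGK1, PHLPP1, DEPTOR and SESN3 lie to the right of their controls, and INPP4B, PHLPP2 and FNIP2 to the left. The groups do not overlap in 20 of the 42 members, the starred ones included. The control points lie around 0 because their mean sets it.

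Among the PI3K subunits, 1 of 6 rose and none fell. PIK3R3 encodes p55-gamma, a regulatory subunit that lacks the long N-terminal part of p85. Its level was 49.4, 47.2 and 46.9 CPM in the shControl libraries and 56.1, 59.0 and 59.8 CPM in the shGXYLT2 libraries. All 3 knockdown libraries lay above all controls, and the mean went from 47.8 ± 1.36 to 58.3 ± 1.96 CPM (SD, n = 3 each), a rise of 1.22-fold (edgeR log2 fold change of 0.29 with SE 0.066 and adjusted p of 0.00698). Without shControl replicate 3 the edgeR adjusted p was 0.0543.

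PIK3R2, which encodes the regulatory subunit p85-beta, did not pass the test, and it is described with its libraries because of how the table lists its locus, a choice made after its values were seen. Its listed level was 49.0, 33.1 and 57.2 CPM in shControl and 73.4, 72.4 and 75.1 CPM in shGXYLT2, where shControl replicate 2 was the lowest. The groups did not overlap, and the log2 fold change was 0.66 (SE 0.19, edgeR adjusted p = 0.0863). Without shControl replicate 2 or 3 the edgeR adjusted p was 0.00245 or 0.00184. Without shControl replicate 1 it was 0.2222, and without any 1 shGXYLT2 library 0.1885 to 0.2374. On chromosome 19 a second gene of the table, a readthrough model that runs from PIK3R2 on into IFI30 on the same strand, covers 87.2% of the exon bases of PIK3R2 (chr19:18153118-18170540, plus strand, GRCh38), so reads of 1 transcript could be listed under either.

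The readthrough gene held 10240 counts over the 6 libraries and PIK3R2 held 8006. The readthrough level was 80.3, 98.2 and 63.1 CPM in shControl and 80.1, 70.2 and 89.9 CPM in shGXYLT2, and it was highest in the control library where PIK3R2 was lowest. PIK3R2 took 37.9%, 25.2% and 47.5% of the sum of both in shControl and 47.8%, 50.8% and 45.5% in shGXYLT2. Summed, the locus gave 129, 131 and 120 CPM against 154, 143 and 165 CPM, or 127 ± 5.88 and 154 ± 11.2 CPM (SD, n = 3 each). The sum, tested in place of PIK3R2 as an alternative added after seeing the data, rose 1.21-fold (edgeR log2 fold change of 0.28 with SE 0.065 and adjusted p of 0.00815). Compared with the listed PIK3R2 value, the log2 fold change and its SE were smaller, and the SD of the libraries was smaller in shControl (5.88 against 12.2 CPM) and larger in shGXYLT2 (11.2 against 1.35 CPM). Part of the readthrough counts can come from IFI30 exons.

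**Figure D2:**
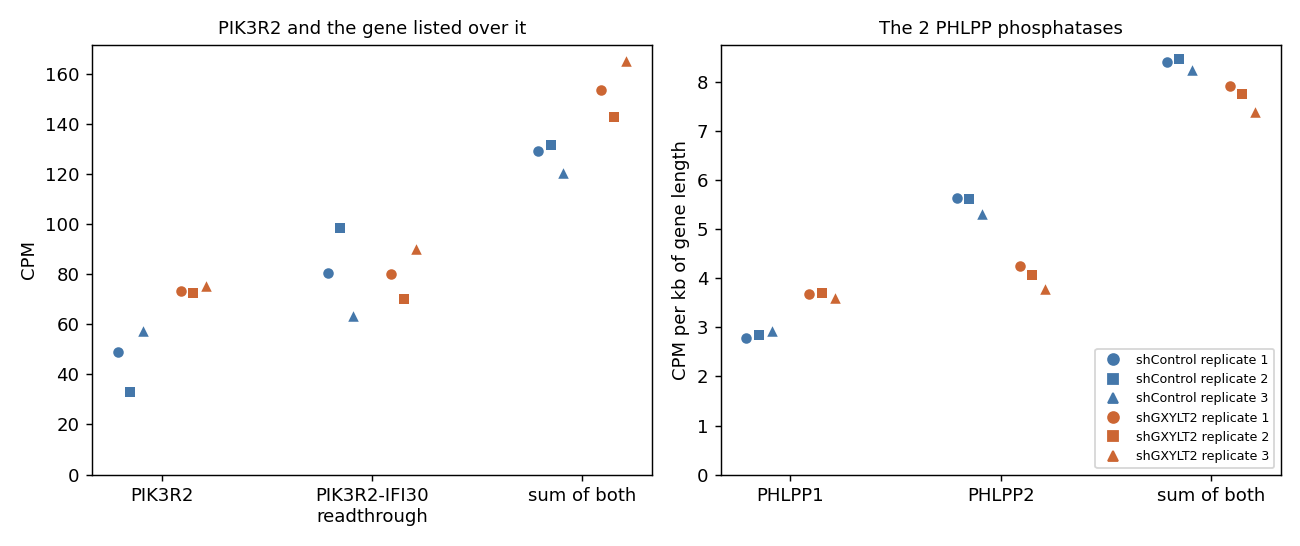
Left, CPM per library (vertical axis, from 0) of PIK3R2, of the readthrough gene listed over it and of their sum; right, CPM per kb of gene length of PHLPP1, PHLPP2 and their sum (blue shControl, orange shGXYLT2; circles, squares and triangles are replicates 1, 2 and 3). PIK3R2 and the readthrough gene vary in opposite directions among controls while the sum is 120 to 131 CPM there, and PHLPP1 and PHLPP2 draw together in shGXYLT2.

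The remaining subunits did not pass. The catalytic subunits PIK3CA (p110-alpha) and PIK3CB (p110-beta) averaged 31.9 and 39.3 CPM in shControl and 32.1 and 39.5 CPM in shGXYLT2, with log2 fold changes of 0.01 each (SE 0.088 and 0.071). PIK3CD, the catalytic subunit best known from leukocytes, was lower in every shGXYLT2 library, at 4.196, 4.04 and 4.05 against 3.72, 2.56 and 3.46 CPM (edgeR log2 fold change of -0.33 with adjusted p of 0.243). PIK3CD shares a short stretch, 1.41% of its exon bases, with CLSTN1 on the opposite strand, which held 16337 counts beside its own 467. PIK3CA shares 35.8% with KCNMB3 on the opposite strand. PIK3R1, which encodes p85-alpha, had a log2 fold change of 0.09. By CPM per kb of the gene length in the table, PIK3CB made up 59.0% ± 0.814 of the 3 catalytic transcripts in shControl and 60.3% ± 1.21 in shGXYLT2 (SD, n = 3 each), and PIK3CD 10.4% ± 0.5001 and 8.41% ± 1.79. Of the 3 regulatory transcripts, PIK3R2 as listed took 37.3% ± 5.75 and 45.9% ± 1.89.

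The IRS adaptors link insulin and IGF1 receptors to PI3K. IRS2 had 1, 0 and 3 counts in shControl and 1, 2 and 0 counts in shGXYLT2 and was not tested. IRS1, the only one of the pair with a measurable level, stood at 6.38, 5.27 and 7.13 CPM in shControl and 5.71, 4.07 and 4.54 CPM in shGXYLT2. The groups overlapped, because shControl replicate 2 lay below shGXYLT2 replicate 1, and the log2 fold change of -0.40 (SE 0.16) did not pass (edgeR adjusted p = 0.121).

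Of the kinases downstream of PIP3, SGK1 rose and AKT1, AKT2 and PDPK1 did not pass. SGK1 is a kinase related to AKT that mTORC2 and PDK1 activate. Its level was 20.5, 24.5 and 20.01 CPM in shControl and 33.9, 28.8 and 27.8 CPM in shGXYLT2. The lowest knockdown library exceeded the highest control, and the mean rose 1.40-fold, 21.7 ± 2.50 CPM becoming 30.2 ± 3.24 CPM (SD, n = 3 each; edgeR log2 fold change of 0.48 with SE 0.097 and adjusted p of 0.0025). AKT1 was lower in every shGXYLT2 library, at 247.6 ± 5.21 against 223 ± 16.5 CPM (edgeR log2 fold change of -0.15 with adjusted p of 0.128), and AKT2 averaged 53.8 and 59.6 CPM (log2 0.14, edgeR adjusted p = 0.236). PDPK1, which encodes PDK1, had a log2 fold change of -0.03. AKT1 was the main AKT transcript per kb in both groups, with 79.4% ± 1.98 and 77.0% ± 1.77 of the 3 (SD, n = 3 each).

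The 3 phosphatases among the members were the role group in which each member passed, 1 upward and 2 downward, beside 12.2% of all tested genes. Other phosphatases of the pathway, in the further lists described below, did not pass. They were INPP4A, INPPL1, INPP5E and PPP2CA, with edgeR adjusted p of 0.786, 0.205, 0.236 and 0.379. INPP4B removes a phosphate from the lipid PI(3,4)P2 and so limits AKT activation. Its level was 10.7, 10.9 and 11.3 CPM in shControl and 7.39, 8.27 and 6.38 CPM in shGXYLT2. All knockdown libraries were below all controls, and the mean was 10.98 ± 0.288 CPM in shControl and 7.35 ± 0.946 CPM in shGXYLT2, a fall of 1.49-fold (SD, n = 3 each; edgeR log2 fold change of -0.58 with SE 0.12 and adjusted p of 0.00327). This was the largest fall among the members that passed.

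PHLPP1 and PHLPP2 encode paired phosphatases that dephosphorylate the hydrophobic motif of AKT, and their transcripts moved in opposite directions. PHLPP1 (chr18:62715450-62980433, plus strand, GRCh38) was at 17.5, 18.0 and 18.4 CPM in shControl and 23.1, 23.3 and 22.7 CPM in shGXYLT2. It rose 1.28-fold, from 18.0 ± 0.428 to 23.1 ± 0.336 CPM (SD, n = 3 each; edgeR log2 fold change of 0.36 with SE 0.083 and adjusted p of 0.00722), with tight and separate groups. Without shControl replicate 1 the edgeR adjusted p was 0.0543. PHLPP2 (chr16:71637835-71724701, minus strand, GRCh38) was at 27.1, 27.1 and 25.6 CPM in shControl and 20.5, 19.5 and 18.2 CPM in shGXYLT2. The means were 26.6 ± 0.866 and 19.4 ± 1.12 CPM, a fall of 1.37-fold (SD, n = 3 each; edgeR log2 fold change of -0.45 with SE 0.083 and adjusted p of 0.00119), and again no library crossed over.

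Per kb of gene length the ratio of PHLPP1 to PHLPP2 was 0.494, 0.508 and 0.549 in shControl and 0.864, 0.912 and 0.950 in shGXYLT2. The mean ratio was 0.517 ± 0.0286 and 0.909 ± 0.0433 (SD, n = 3 each; exact two-sided permutation p = 0.1, the smallest possible here). The sum of both transcripts was 8.42, 8.48 and 8.24 CPM per kb in shControl and 7.92, 7.77 and 7.39 in shGXYLT2, so the knockdown libraries were also lower in the sum.

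PHLPP2 is the only member whose longest annotated 3′ UTR holds GACTCAT, the 7-base word most strongly tied to falls among all 16384 words searched in these data. Its site lies at chr16:71645067-71645095 on the minus strand (GRCh38), in the 3′ UTR, and is shown with the word in capitals.
PHLPP2 site: tgtagtcttaaGACTCATtatagtgtatt
The word was found in 1032 of 12369 genes (8.34%), of which 23.8% fell, against 6.39% of genes without it. Outside the members, GXYLT1, which fell, holds the word more than once in its 3′ UTR. Among the further pathway genes described below, TXNIP holds it and fell, and the other holders did not pass the test. The word was chosen on these same fold changes, so its presence in any of these genes is a description. The opposite strand of PHLPP2 carries MARVELD3 over 8.55% of its exon bases, with 37 counts in all 6 libraries beside 2914 for PHLPP2.

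In the mTOR complexes the inhibitory subunit DEPTOR rose and the other 5 members did not pass. DEPTOR binds mTOR in both complexes and restrains its kinase activity. Its level was 11.1, 11.1 and 11.8 CPM in shControl and 16.5, 16.9 and 15.04 CPM in shGXYLT2. The groups were far apart relative to their spread, at 11.3 ± 0.407 and 16.1 ± 0.954 CPM (SD, n = 3 each; 1.42-fold, edgeR log2 fold change of 0.51 with SE 0.098 and adjusted p of 0.0017). MTOR, the kinase, and RPTOR, the scaffold that defines mTORC1, were lower in every shGXYLT2 library without passing. MTOR averaged 120 ± 2.71 and 107 ± 3.22 CPM (edgeR log2 fold change of -0.17 with adjusted p of 0.0662) and RPTOR 41.5 ± 1.38 and 36.0 ± 2.67 CPM (log2 -0.20, edgeR adjusted p = 0.0841). RICTOR and MAPKAP1, which define mTORC2, had log2 fold changes of 0.01 and 0.02, and MLST8, shared by both complexes, -0.13.

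TSC1, TSC2, RHEB and the S6 kinases RPS6KB1 and RPS6KB2 did not pass. RHEB, the GTPase that switches mTORC1 on, was the most abundant of its group per kb. It stood at 157, 160 and 153 CPM in shControl and 149, 154 and 160 CPM in shGXYLT2, fully overlapping (edgeR log2 fold change of -0.02 with SE 0.057 and adjusted p of 0.861; the sign turned with upper-quartile scaling). TSC1 and TSC2, partners in the complex that switches RHEB off, had log2 fold changes of -0.12 and 0.13. RPS6KB2, which encodes the second of the S6 kinases that mTORC1 phosphorylates, was at 29.8, 31.9 and 29.2 CPM in shControl and 33.9, 29.2 and 32.2 CPM in shGXYLT2 (log2 0.07, SE 0.080, edgeR adjusted p = 0.651). RPS6KB1 had a log2 fold change of -0.14.

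The Rag GTPases, which carry the amino acid signal to mTORC1, did not pass either. RRAGA was the most abundant per kb, with 81.6% ± 1.34 of RRAGA and RRAGB together in shControl and 83.9% ± 1.25 in shGXYLT2 (SD, n = 3 each). Its level was 49.9, 46.4 and 47.3 CPM in shControl and 49.4, 51.4 and 59.8 CPM in shGXYLT2. Among the knockdown libraries only replicate 1 lay inside the control range (edgeR log2 fold change of 0.16 with SE 0.077 and adjusted p of 0.195). RRAGC and RRAGD, the partners of A and B in the heterodimer, had log2 fold changes of -0.06 and -0.24, and RRAGB -0.07.

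The 5 Ragulator subunits, the scaffold that holds the Rags on the lysosome, included none past the threshold. LAMTOR5 had the highest level per kb of all members, 85.2 CPM per kb in shControl and 88.0 in shGXYLT2. Its libraries were at 72.2, 76.8 and 72.8 CPM and at 71.9, 72.8 and 84.3 CPM, so only shGXYLT2 replicate 3 stood out (edgeR log2 fold change of 0.05 with SE 0.070 and adjusted p of 0.744). That sign turned without shGXYLT2 replicate 3 and under offsets for GC content. LAMTOR4 came nearest to the threshold, with 37.2 ± 1.35 and 44.1 ± 4.56 CPM (SD, n = 3 each; edgeR log2 fold change of 0.24 with adjusted p of 0.0529). It overlaps C7orf43 on the opposite strand over 18.4% of its exon bases (1385 counts beside 5289), and use of strand in the counting is not given. LAMTOR1 and LAMTOR2 were also higher in every shGXYLT2 library (log2 fold changes of 0.12 and 0.14), and LAMTOR3 had a log2 fold change of -0.04.

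Among the brakes on amino acid signalling, SESN3 rose, and 2 others were higher in every shGXYLT2 library without passing. Sestrins restrain mTORC1 by holding back GATOR2, an inhibitor of GATOR1, and SESN3 is a known FOXO target. SESN3 was at 30.0, 27.6 and 35.2 CPM in shControl and 44.7, 49.6 and 43.1 CPM in shGXYLT2. This was the largest rise among the members that passed, 1.47-fold from 30.9 ± 3.91 to 45.8 ± 3.39 CPM (SD, n = 3 each; edgeR log2 fold change of 0.56 with SE 0.088 and adjusted p of 0.000287). SESN1, a p53 target, averaged 7.67 ± 1.09 and 9.98 ± 0.834 CPM (log2 0.38, edgeR adjusted p = 0.0581). DEPDC5, a subunit of GATOR1, the complex that switches RagA and RagB off, averaged 12.7 ± 0.783 and 15.5 ± 0.592 CPM (log2 0.28, edgeR adjusted p = 0.0624). NPRL2 and NPRL3, the remaining GATOR1 subunits, had log2 fold changes of -0.11 and -0.17. Summed over SESN1, SESN2 and SESN3, sestrin transcripts were 8.21, 8.01 and 8.85 CPM per kb in shControl and 10.6, 10.5 and 10.9 in shGXYLT2.

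The folliculin complex activates RagC and RagD when amino acids are present. FNIP2, a partner of folliculin, was at 28.3, 26.8 and 30.3 CPM in shControl and 22.4, 24.9 and 18.4 CPM in shGXYLT2. No library crossed over, and the means were 28.5 ± 1.75 and 21.9 ± 3.31 CPM, a fall of 1.30-fold (SD, n = 3 each; edgeR log2 fold change of -0.38 with SE 0.099 and adjusted p of 0.0169). The call was lost without shControl replicate 1 (edgeR adjusted p = 0.0581) and without shControl replicate 3 (0.117). FLCN itself was lower in every shGXYLT2 library (28.1 ± 1.48 and 24.7 ± 1.27 CPM; log2 -0.19, edgeR adjusted p = 0.154). FNIP1 ranged from 23.1 to 29.6 CPM in shControl and from 17.1 to 27.2 CPM in shGXYLT2, with a log2 fold change of -0.16.

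**Figure D3:**
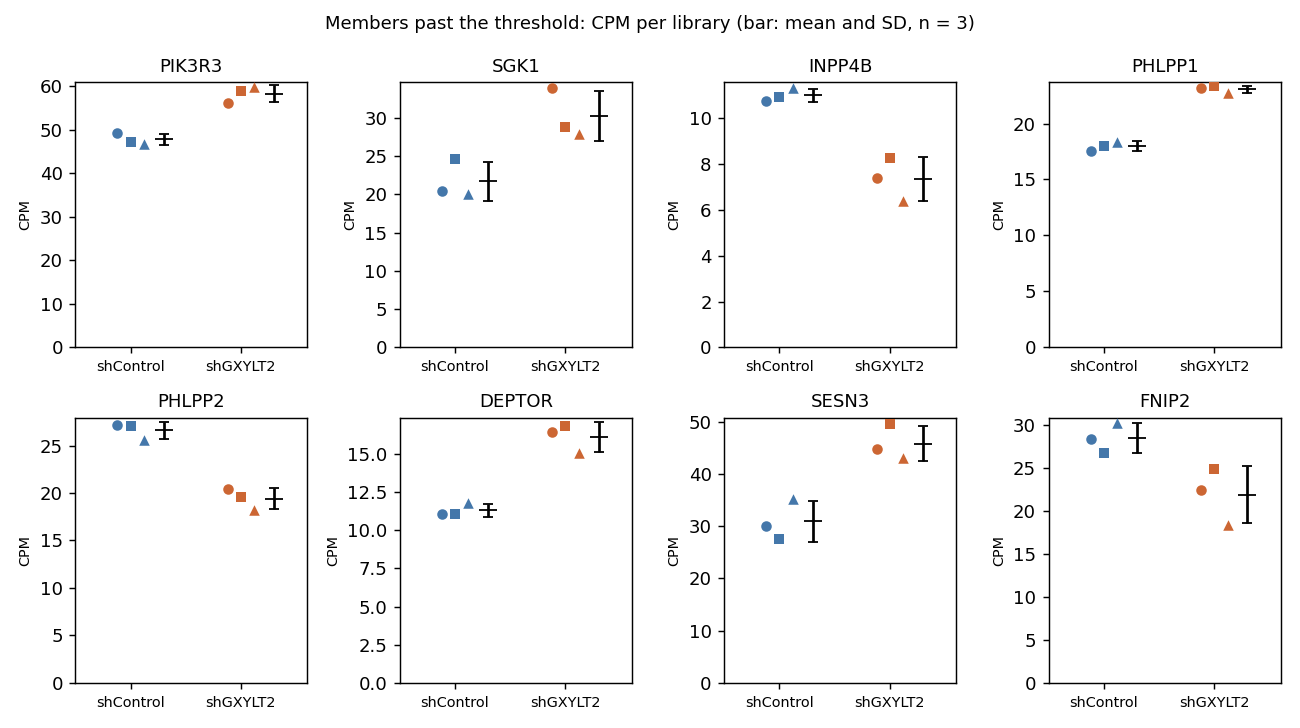
CPM per library (vertical axes, from 0) of the 8 members that passed the test, with blue points for shControl, orange for shGXYLT2, circles, squares and triangles for replicates 1, 2 and 3, and a bar for the mean and SD (n = 3). In each panel all shGXYLT2 libraries lie on one side of all controls; in FNIP2 the nearest libraries are at 26.8 and 24.9 CPM.

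Among the shGXYLT2 libraries the members varied with the GC content of their transcripts. Each library's deviation from its group mean on the log2(CPM + 1) scale was set against GC content over the 42 tested members, as a description across genes that share a library. Pearson's r was -0.07 in shGXYLT2 replicate 1, -0.83 in replicate 2 and 0.76 in replicate 3, and between -0.11 and 0.15 in the shControl libraries. Over 15108 tested genes with a GC value r was -0.53 in shGXYLT2 replicate 2 and 0.50 in replicate 3. Deviations within a group sum to 0, so an opposite slope in the other libraries is built in. The 14 members of lowest GC content (up to 44.97%) had a median deviation of 0.11 in replicate 2 and -0.17 in replicate 3, and the 14 of highest GC content (from 53.8%) -0.10 and 0.09.

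For comparison, the median absolute log2 fold change between groups was 0.154 over the same members. With offsets for GC content and length 14 members were called (10 higher and 4 lower in shGXYLT2), beside 20.5% of all genes tested that way, and the 8 above were among them in the same direction. The added calls were AKT2 (log2 fold change 0.18 in that fit), TSC2 (0.19), LAMTOR4 (0.19), DEPDC5 (0.30) and SESN1 (0.38) upward and MTOR (-0.14) downward. Without shGXYLT2 replicate 3, 12 members were called, beside 14.6% of all genes tested that way; the added calls were PIK3R1 upward (edgeR adjusted p = 0.0291) and AKT1 (0.0124), MTOR (0.0142) and RPTOR (0.0146) downward. Without shGXYLT2 replicate 2, LAMTOR4 passed (edgeR adjusted p = 0.0357).

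**Figure D4:**
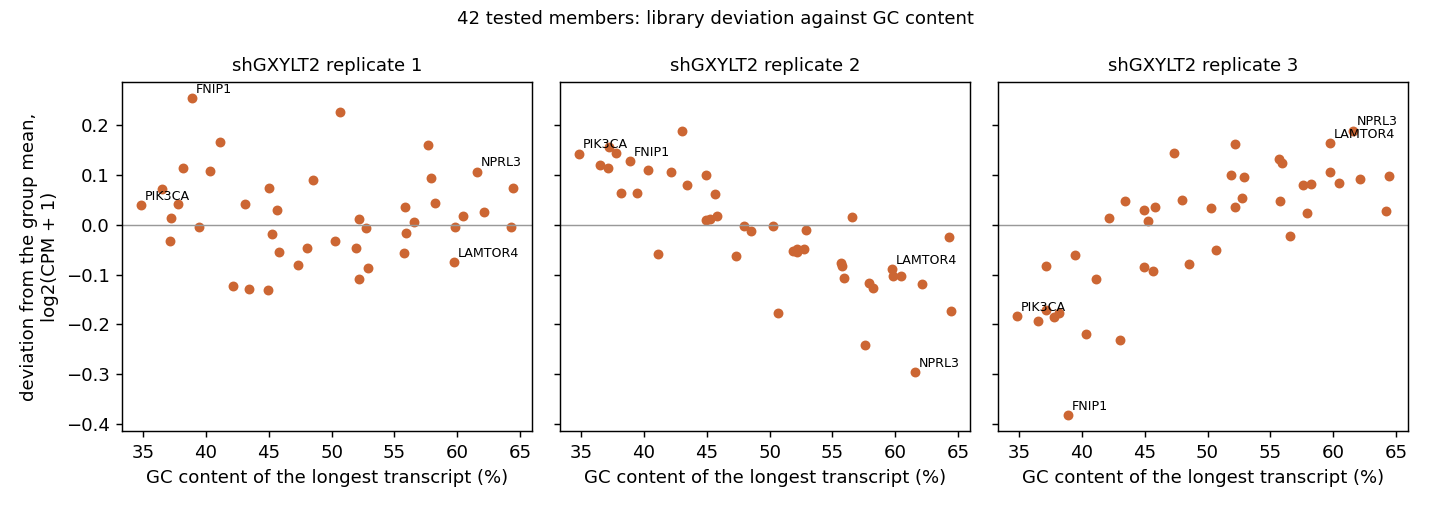
Deviation of each tested member from its group mean on the log2(CPM + 1) scale (vertical axis) against the GC content of its longest transcript in percent (horizontal axis), in the 3 shGXYLT2 libraries. The points fall with GC content in replicate 2 (r = -0.83), rise in replicate 3 (r = 0.76) and show little slope in replicate 1 (r = -0.07), and FNIP1 and NPRL3 are labelled near the ends.

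Beyond the members, 93 further pathway genes in 7 lists were counted in the same fit. Of 89 tested, 8 rose and 9 fell (19.1%, beside 12.2% of all tested genes), with a median log2 fold change of -0.001. The lists were chosen with earlier results of these data known, so the shares called in them are a description. Among receptors and other adaptors 1 of 8 tested fell, the docking protein GAB2, from 12.1 ± 1.17 to 7.55 ± 0.645 CPM (edgeR log2 fold change of -0.69 with adjusted p of 0.000633). In the list of other lipid kinases and phosphatases 1 of 9 rose, PIK3C3, the class III kinase of autophagy and endosomes, from 38.7 ± 0.466 to 51.6 ± 6.18 CPM (log2 0.42, edgeR adjusted p = 0.00199). Of 9 mTOR complex partners PRR5, an mTORC2 subunit, fell the most of all genes in these lists, 1.89-fold from 14.6 ± 0.768 to 7.74 ± 1.11 CPM (log2 -0.92, edgeR adjusted p = 2.7e-05). TBC1D7, the small subunit of the TSC complex, rose (log2 0.31, edgeR adjusted p = 0.0293); with any control library or shGXYLT2 replicate 2 left out its edgeR adjusted p was 0.0547 to 0.148.

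Of 18 tested genes of GATOR2, KICSTOR and the amino acid sensors, SEH1L fell (log2 -0.26, edgeR adjusted p = 0.00696) and none rose, 5.56% of the list. Among 11 genes of AMPK and stress inputs the AMPK catalytic subunit PRKAA1 (log2 -0.28, edgeR adjusted p = 0.0174) and CAB39, a scaffold of its activator LKB1 (log2 -0.33, edgeR adjusted p = 0.00581), fell, and the mTORC1 inhibitor DDIT4L rose (log2 0.33, edgeR adjusted p = 0.0478). Of 22 downstream substrates the translation inhibitor PDCD4 rose (log2 0.31, edgeR adjusted p = 0.0102). NDRG1, a substrate that SGK1 phosphorylates, fell 1.67-fold, from 6.76 ± 0.755 to 4.02 ± 0.490 CPM (log2 -0.74, edgeR adjusted p = 0.00304). SGK1 and NDRG1 transcripts thus moved in opposite directions, while phosphorylation was not measured. Leaving out a library ended several of these calls by edgeR's adjusted p. The values were 0.0611 for SEH1L and 0.0512 for CAB39 without shControl replicate 2. For PRKAA1 they were 0.0671 and 0.133, and for PDCD4 0.0653 and 0.0608, without shControl replicates 1 and 3. For DDIT4L they were 0.0615 to 0.224 without shControl replicate 1 or 3 or shGXYLT2 replicate 2 or 3, and its adjusted p was 0.0775 by DESeq2 and 0.0595 by limma-voom.

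FOXO transcription factors are kept out of the nucleus by AKT and SGK1, and their target genes were split. Of 15 tested, 4 rose and 3 fell (46.7%, beside 12.2% of all tested genes), with a median log2 fold change of 0.007. The list was chosen with earlier results of these data known, so this share is a description. The antioxidant enzyme CAT (log2 0.36, edgeR adjusted p = 0.00179), the transcriptional regulator CITED2 (log2 0.39, edgeR adjusted p = 0.0079) and the apoptosis inducer BCL2L11 (log2 0.38, edgeR adjusted p = 0.012) were among the rises. KLF6 (log2 -0.38, edgeR adjusted p = 0.00137), GADD45A (log2 -0.30, edgeR adjusted p = 0.0312) and TXNIP (log2 -0.62, edgeR adjusted p = 0.0443) fell. TXNIP ranged widely within shGXYLT2, at 29.8 ± 7.76 CPM against 45.5 ± 0.979 CPM in shControl (SD, n = 3 each), and its call was lost in 7 of 15 alternatives, with an edgeR adjusted p of up to 0.156 (without shControl replicate 1). Among the other genes named here, the calls lost with a library left out were CITED2 without shControl replicate 3 (edgeR adjusted p = 0.0688), GADD45A without shControl replicate 2 or 3 or shGXYLT2 replicate 2 (0.0878 to 0.148), and BCL2L11 without any 1 control or shGXYLT2 replicate 1 (0.0507 to 0.0877). The remaining rise, the cyclin-dependent kinase inhibitor CDKN1B, is beyond the 3 of a list named by rule and lay close to the threshold (log2 0.19, edgeR adjusted p = 0.0494). Its edgeR adjusted p was 0.0788 to 0.210 without any 1 control or shGXYLT2 replicate 1, its limma-voom adjusted p was 0.0553, and with offsets for GC content and length its log2 fold change was 0.10 (edgeR adjusted p = 0.165).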

How the data were processed

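Messenger RNA of 6 HGC-27 libraries was sequenced from a stranded, ligation-based kit, per the labels' protocols. The submitters' processing notes name the GRCh38.p13 build and the tools HISAT2, StringTie and fastp; their versions and roles, the counting step, its use of strand and the annotation were not given in the sources used here. A table of estimated counts per gene was deposited by the authors; 12.3% of its values carried decimals, and all were rounded here. The gene length deposited beside them has no definition, and values per kb rest on it.

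Groups came from the sample titles. Counts were fitted in R 4.3.3 with edgeR 4.0.16 (filterByExpr by group, TMM factors, robust quasi-likelihood test, group as the only term, all 6 libraries), with Benjamini-Hochberg adjustment over 15693 genes at 0.05. The coefficient of variation that edgeR calls biological was 6.5%, though the spread between these libraries may be technical. The test was checked on counts simulated with the same spread for every gene and no GC trend. That check therefore does not cover the slopes with GC content described above. Library totals of 17291103 to 24898399 counts were multiplied by TMM factors of 0.9882 to 1.0098 to scale CPM, except for the marker CPM, which used the totals alone. Alternatives were upper-quartile factors, DESeq2 1.42.0, limma-voom (limma 3.58.1), other filters, the replicate number as a block, offsets for GC content and length, and each library left out. The fit with PIK3R2 summed with its readthrough gene was added after the data were seen.

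Positions, exon overlaps, GC content and 3′ UTRs came from GENCODE 29 on GRCh38, promoters from RefSeq (GRCh38.p14). The 7 further lists are receptors and adaptors, lipid kinases and phosphatases, mTOR partners, GATOR2 with KICSTOR and sensors, AMPK and stress inputs, substrates, and FOXO targets; SAMTOR was found as BMT2 through a RefSeq synonym. Each member is named; libraries are printed for those past the threshold and for the most abundant per kb of role groups with none, and up to 3 risen and 3 fallen genes of each further list are named. The libraries of PIK3R2, its readthrough gene, PIK3CD and GXYLT2 and the counts of IRS2 were given outside this rule. So were CDKN1B, GXYLT1, the phosphatases of the further lists and the markers. The members, lists and words were chosen with earlier results of these data known. Figures used matplotlib 3.10.9 under Python 3.11.15 (pandas 2.3.3, numpy 2.4.6).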

Additional observations from a re-analysis of the deposited data

How the results depend on the processing

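All 8 called members kept their direction in the 15 alternatives, and SGK1, INPP4B, PHLPP2, DEPTOR and SESN3 also stayed past the threshold in each; the exceptions were PIK3R3, PHLPP1 and FNIP2 when a control library was left out. Members called higher numbered 8 with upper-quartile factors, 8 without a filter, 10 with offsets for GC content and length and 10 with those offsets and the replicate block, against 5. With the offsets 1379 genes were higher and 1722 lower, against 833 and 1074. All genes called higher numbered 1024 with upper-quartile factors, 1038 without a filter and 1177 with the offsets and the block. In the order given, those fits called 12.7%, 6.76%, 20.5% and 17.8% of their tested genes in either direction, against 12.2%. The fit without a filter tested 30991 genes, against 15693. With 1 library left out, 6% to 14.6% of the genes tested were called. Leaving out 1 library at a time, the members called higher ranged from 4 to 6 and those lower from 2 to 6 (6 without shGXYLT2 replicate 3), all genes called higher from 397 to 1038 and lower from 563 to 1309, and further pathway genes from 2 to 8 higher and 5 to 9 lower, with the lowest counts of all genes without shControl replicate 3. RHEB moved to 0.001 with upper-quartile factors and between -0.044 and 0.003 with a library left out. LAMTOR5 moved to -0.046 with the GC and length offsets, with and without the block, and between -0.027 and 0.089 with a library left out. PIK3R2 passed in 7 of 15 alternatives, with edgeR, DESeq2 or limma adjusted p from 0.00122 to 0.253. Those 7 include the sum with its readthrough gene, which was added after the data were seen. That sum is another quantity, with a log2 fold change of 0.276 against 0.657 for PIK3R2 as listed. The cause of these shifts was not tested.

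The replicate numbers of the titles were not taken as pairs, because deviations of same-numbered libraries correlated at -0.006, -0.106 and -0.116 over genes, and other pairs at up to 0.111. Some column names of the deposited counts carry other numbers than the titles, so libraries are same-numbered here by title only. Fitted with the replicate block by title all the same, 6 members were higher and 3 lower, PIK3R2 being the addition. In all, 1471 genes were called, 9.37% of those tested. Of the further pathway genes named, GADD45A (edgeR adjusted p = 0.0589) and CDKN1B (0.11) lost their calls.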
